A study of Homo sapiens with 45 samples.

Results

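The genes described here are 10 human early response regulators: EGR1, EGR2 and EGR3, NR4A1, NR4A2 and NR4A3, IER2, IER3 and IER5, and SRF, the factor through which many of them are switched on. They were chosen by symbol, with EGR1 taken for its fall after HNRNPK knockdown, and all 10 are among the 28278 gene names of the RNA count table. HCT116 cells, a standard human line derived from a colon cancer, were transfected with siRNA at 25 nM and collected 72 hours later, so that every library below comes from transfected cells. The study measured polyadenylated RNA and, by chromatin immunoprecipitation (ChIP), domains of lamin B1 and of the histone marks H3K9me2, H3K9me3 and H3K27me3.

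The siNTC5 group received a nontargeting siRNA and the siHNRNPK group an siRNA to HNRNPK, which codes for an RNA and DNA binding protein. Each has 4 RNA libraries in 1 count table, replicates 1 and 2 made with the Illumina TruSeq stranded mRNA kit and replicates 3 and 4 with the Illumina Stranded mRNA, Ligation kit. The remaining group, Scramble, holds 2 more libraries labelled as nontargeting siRNA controls. They are TruSeq libraries, their RNA was purified with a Qiagen RNeasy kit where the other 8 used a Maxwell kit, and each has a count table of its own. The labels do not say whether replicates are separate transfections, so p values measure only the spread between these libraries. Every comparison is between cells of 1 line under 1 siRNA label for each group.

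Early response genes are transcribed within minutes of a growth factor, serum, stress or calcium signal, without new protein synthesis, and their mRNAs are short-lived. SRF binds the CArG box, a short AT-rich element, together with ELK family cofactors that are phosphorylated by the MAP kinase pathway or with actin-regulated MRTF cofactors. EGR proteins are zinc finger activators whose activity is restrained by NAB1 and NAB2. NR4A proteins are orphan nuclear receptors that bind DNA alone or, for NR4A1 and NR4A2, with RXR partners. IER proteins are short, early-induced regulators of growth and stress responses. A steady level at 72 hours, as measured here, is not an acute response.

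The 250 bases before the transcription start are shown for the members that hold a CArG box there, because this element is the one that SRF binds. The sequences are from RefSeq on GRCh38.p14, read 5′ to 3′ on the strand of the gene, with each CArG box in capitals. They lie at chr5:138465229-138465478 on the plus strand for EGR1, chr10:62816367-62816616 on the minus strand for 1 of 3 EGR2 starts, and chr6:43171019-43171268 on the plus strand for 1 of 2 SRF starts.
EGR1: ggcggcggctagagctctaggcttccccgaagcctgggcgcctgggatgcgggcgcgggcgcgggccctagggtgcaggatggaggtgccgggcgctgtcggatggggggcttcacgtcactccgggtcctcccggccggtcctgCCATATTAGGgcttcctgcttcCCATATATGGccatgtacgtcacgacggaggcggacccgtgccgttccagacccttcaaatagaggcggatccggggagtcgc
EGR2: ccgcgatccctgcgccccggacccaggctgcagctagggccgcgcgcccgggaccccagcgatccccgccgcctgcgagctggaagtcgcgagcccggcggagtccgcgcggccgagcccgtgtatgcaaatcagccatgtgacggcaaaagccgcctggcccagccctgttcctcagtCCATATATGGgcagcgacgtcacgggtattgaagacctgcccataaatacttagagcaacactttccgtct
SRF: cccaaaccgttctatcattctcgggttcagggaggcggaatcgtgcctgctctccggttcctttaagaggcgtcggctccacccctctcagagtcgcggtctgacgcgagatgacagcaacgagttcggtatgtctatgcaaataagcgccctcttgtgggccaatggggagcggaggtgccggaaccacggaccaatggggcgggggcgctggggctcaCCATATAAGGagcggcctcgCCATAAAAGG
EGR1 has 2 CArG boxes, CCATATTAGG at 105 to 96 bases before the start and CCATATATGG at 83 to 74 bases. EGR2 has 1, CCATATATGG, at 71 to 62 bases. SRF has 2, CCATATAAGG at 30 to 21 bases and CCATAAAAGG at 10 to 1 bases. Windows were matched for 7 of the 10 members: EGR1, EGR2, NR4A1, NR4A3, IER2, IER5 and SRF. Across all genes, 1.16% of 35116 windows of the same length held a CArG box on either strand. The other motifs, searched on both strands, were TGACGTCA (the cAMP response element, in 1.65% of windows), GCGTGGGCG (an EGR site, 0.72%), AAAGGTCA (the NR4A monomer element, 1.05%) and CCGGAAGT (an ETS site, 3.42%). None of these 4 strings was found in the members' windows, the windows of NR4A1, NR4A3, IER2 and IER5 held no CArG box, and a match is a description of letters, not of binding.

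The 8 libraries held 12107280 to 23633851 counts and the Scramble libraries 59209169 and 55007171. HNRNPK mRNA in siHNRNPK was 22.5% of its siNTC5 mean, 24.9% within the TruSeq and 19.6% within the Ligation libraries. Of 8 colon epithelial markers, 7 were expressed and VIL1, an actin-bundling protein of the brush border, stayed at 0.446 CPM (counts scaled to library size) or below. The summed epithelial markers spanned 2861 to 3292 CPM in siNTC5, 4607 to 5677 CPM in siHNRNPK and 4646 to 4781 CPM in Scramble. Fibroblast markers summed to 44.6 to 73.3 CPM in siNTC5, 75.4 to 122.5 CPM in siHNRNPK and 32.9 to 36.3 CPM in Scramble, nearly all of it COL1A1, with COL1A2, COL3A1 and DCN at or near 0. Immune markers summed to 17.5 to 24.2, 21.8 to 27.1 and 55.5 to 63.1 CPM in the same order, nearly all CD68 in the 8 libraries, with CD3E at 0 there. Endothelial markers stayed between 0.602 and 3.30 CPM in the 8 libraries and between 1.26 and 1.56 CPM in Scramble. The part of these marker differences in the results below was not tested.

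HNRNPK knockdown did not move the early regulators in 1 direction. EGR3, IER2 and SRF fell, NR4A2, NR4A3 and IER5 rose, and NR4A1 went down in one kit and up in the other. EGR2 did not pass the test, and EGR1, the gene chosen for its low level after knockdown, is described without one. Levels are CPM after TMM scaling, with the SD over 4 libraries. Fold changes are on the log2 scale with their standard errors from edgeR, with kit in the model, and each adjusted p is from its quasi-likelihood test over all 13933 tested genes. Of the 8 tested members other than EGR1, 6 passed an adjusted p of 0.05, 3 higher and 3 lower, against 71.5% of all tested genes, of which 35.5% were higher and 36.1% lower. The members' share is thus near the background. The median log2 fold change of these 8 members was 0.0067, against -0.0042 over all tested genes. In bulk RNA, a lower level in each cell and fewer cells with the transcript cannot be told apart.

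EGR1, a zinc finger activator of growth and differentiation genes, was the member chosen for its fall, so its values are a description without a test. Its siNTC5 libraries held 274 and 292 CPM with TruSeq and 196 and 197 CPM with Ligation. Its siHNRNPK libraries held 87.1 and 84.5 CPM with TruSeq and 61.3 and 65.0 CPM with Ligation. No siHNRNPK library came near the lowest control. The mean went from 240 ± 50.4 to 74.5 ± 13.2 CPM, a log2 fold change of -1.68 ± 0.05. Of all tested genes, 2.1% had a log2 fold change this low or lower. EGR1 was left at 30.3% of the control within TruSeq and 32.1% within Ligation. The gene lies on chromosome 5, 138465479 to 138469303, plus strand.

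EGR3, a close relative of EGR1 known for its part in muscle spindles and lymphocytes, held 4.92, 5.64, 4.53 and 4.32 CPM in siNTC5 replicates 1 to 4. In siHNRNPK it held 3.23, 1.49, 2.36 and 1.24 CPM. Every knockdown library was below every control, and EGR3 fell by 1.21 ± 0.22 on the log2 scale (adjusted p = 6.12e-05). EGR2, which directs myelination by Schwann cells, held 2.13, 2.13, 2.66 and 2.57 CPM in siNTC5 and 1.78, 1.19, 2.28 and 1.48 CPM in siHNRNPK. Its groups overlapped through siHNRNPK replicate 3, and its log2 fold change of -0.49 ± 0.22 did not pass (adjusted p = 0.0517). The call was at the edge: it passed without siHNRNPK replicate 1 (-0.61) or replicate 3 (-0.63), with library totals in place of TMM (-0.53) and with no filter on low counts (-0.53). EGR2 and EGR3 are far scarcer than EGR1 in these libraries, and 1 count is worth 0.0423 to 0.0826 CPM.

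**Figure D1:**
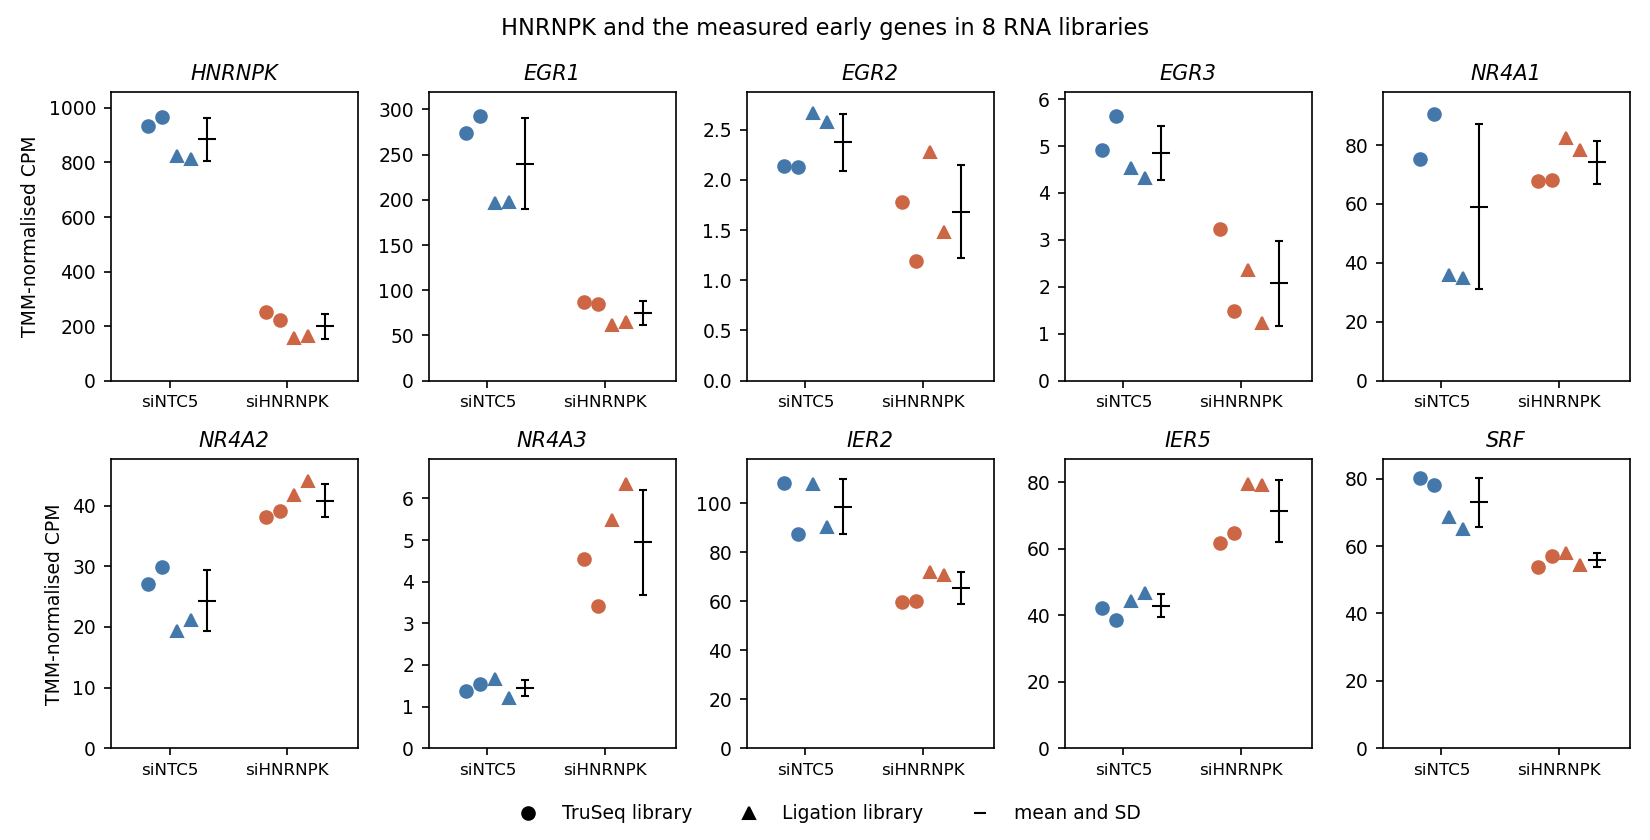
Level of HNRNPK and of the 9 measured early genes in each of 8 libraries (TMM-normalised CPM, axes from 0), with circles for TruSeq, triangles for Ligation, and the mean and SD of 4 libraries beside each group. EGR1, EGR3, IER2 and SRF lie lower and NR4A2, NR4A3 and IER5 higher in all 4 siHNRNPK libraries, while EGR2 and NR4A1 overlap.

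NR4A3, the receptor also known as NOR1, showed the largest rise among the members. Its siNTC5 libraries held 1.36, 1.54, 1.67 and 1.204 CPM and its siHNRNPK libraries 4.55, 3.42, 5.48 and 6.35 CPM. All knockdown libraries were above all controls, and NR4A3 rose by 1.74 ± 0.21 on the log2 scale (adjusted p = 3.59e-07). NR4A2, also known as NURR1 and needed for midbrain dopamine neurons, held 27.03, 29.9, 19.3 and 21.2 CPM in siNTC5 and 38.1, 39.1, 41.8 and 44.1 CPM in siHNRNPK. Its groups did not overlap, and it rose by 0.74 ± 0.10 (adjusted p = 2.92e-06).

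NR4A1, or NUR77, a receptor linked to apoptosis and to inflammatory signalling, held 75.3, 90.4, 36.0 and 34.8 CPM in siNTC5. In siHNRNPK it held 67.8, 68.2, 82.3 and 78.3 CPM. The TruSeq controls lay above the TruSeq knockdown libraries, whereas the Ligation controls lay far below the Ligation knockdown libraries. The fit over both kits gave a log2 fold change of 0.40 ± 0.18, which did not pass (adjusted p = 0.0594). This value averages 2 opposite differences, which are taken up below. It passed without siNTC5 replicate 1 (0.44), siNTC5 replicate 2 (0.59), siHNRNPK replicate 1 (0.58) or siHNRNPK replicate 2 (0.57), each a TruSeq library, and with upper-quartile scaling (0.43), no filter (0.36) or a mean of at least 50 counts (0.43). In the annotation NR4A1 overlaps NR4A1AS and 2 uncharacterised loci, and the strand counted is not given in the sources used here, so their reads may be shared.

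IER2, a nuclear regulator induced by growth factors, held 108.5, 87.4, 107.9 and 90.5 CPM in siNTC5 and 59.7, 60.2, 71.8 and 70.6 CPM in siHNRNPK. All knockdown libraries were below all controls, and IER2 fell by 0.59 ± 0.07 on the log2 scale (adjusted p = 7.31e-07). IER5, which is known to promote the activity of the heat shock factor HSF1, held 42.1, 38.5, 44.3 and 46.7 CPM in siNTC5 and 61.7, 64.9, 79.5 and 79.0 CPM in siHNRNPK. It was higher in every knockdown library and rose by 0.73 ± 0.06 (adjusted p = 2.23e-09). The same fit with the Scramble libraries added to the controls gave IER5 a log2 fold change of 0.48, which did not pass (adjusted p = 0.0609).

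SRF itself held 80.2, 78.1, 68.5 and 65.1 CPM in siNTC5 and 53.9, 57.1, 58.0 and 54.3 CPM in siHNRNPK. The groups did not overlap, and SRF fell by 0.39 ± 0.06 on the log2 scale (adjusted p = 1.56e-05), the smallest change among the members that passed. Of the 8 tested members other than EGR1, 6 had groups that did not overlap, 3 lower and 3 higher, against 56.5% of all tested genes (28% lower and 28.5% higher). Of the same 8, 2 passed with a log2 fold change of at least 1 in size, EGR3 and NR4A3, against 15.8% of all tested genes. IER3 was too scarce in the 8 libraries to be tested and is described with the Scramble libraries.

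The knockdown difference was then compared between the kits, which separate replicates 1 and 2 from replicates 3 and 4. Anything else that differed between these pairs of replicates cannot be told apart from the kit. The rule that chose EGR1 used the knockdown difference and not its change with kit. For EGR1 the log2 fold change was -1.72 ± 0.06 in TruSeq and -1.64 ± 0.06 in Ligation, and their difference of 0.08 ± 0.08 did not pass (adjusted p = 0.749), with 2 libraries in each arm. Of 9 tested members 1 passed this interaction test, against 0.129% of all tested genes (18 genes; 0.0718% with the higher and 0.0574% with the lower difference in Ligation).

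That member was NR4A1. Its log2 fold change was -0.29 ± 0.08 in TruSeq (adjusted p = 0.00453) and 1.18 ± 0.09 in Ligation (adjusted p = 3.07e-09). The difference between the kits was 1.47 ± 0.12 (adjusted p = 2.12e-06), and it passed without any 1 library, at 1.31 to 1.57. Across all tested genes, 12.1% had knockdown differences of opposite sign in the kits. Within siNTC5, NR4A1 was lower in Ligation than in TruSeq by 1.23 ± 0.08 (adjusted p = 9.75e-08), while within siHNRNPK the kits differed by 0.24 ± 0.08, which did not pass (adjusted p = 0.0604). The difference between the kits therefore lay mostly in the control libraries.

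NR4A2 went the same way to a lesser degree. It was higher after knockdown by 0.43 ± 0.09 in TruSeq (adjusted p = 4.83e-04) and by 1.08 ± 0.10 in Ligation (adjusted p = 3.38e-08). The difference of 0.65 ± 0.13 did not pass (adjusted p = 0.0617), but passed with the replicate number as a block (0.65, adjusted p = 0.0238). No pairing beyond kit was shown for that block. In siNTC5 it was lower in Ligation by 0.49 ± 0.10 (adjusted p = 0.00179). NR4A3 was higher by 1.44 ± 0.28 in TruSeq and by 2.05 ± 0.29 in Ligation, a difference of 0.61 ± 0.40 that did not pass (adjusted p = 0.58).

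**Figure D2:**
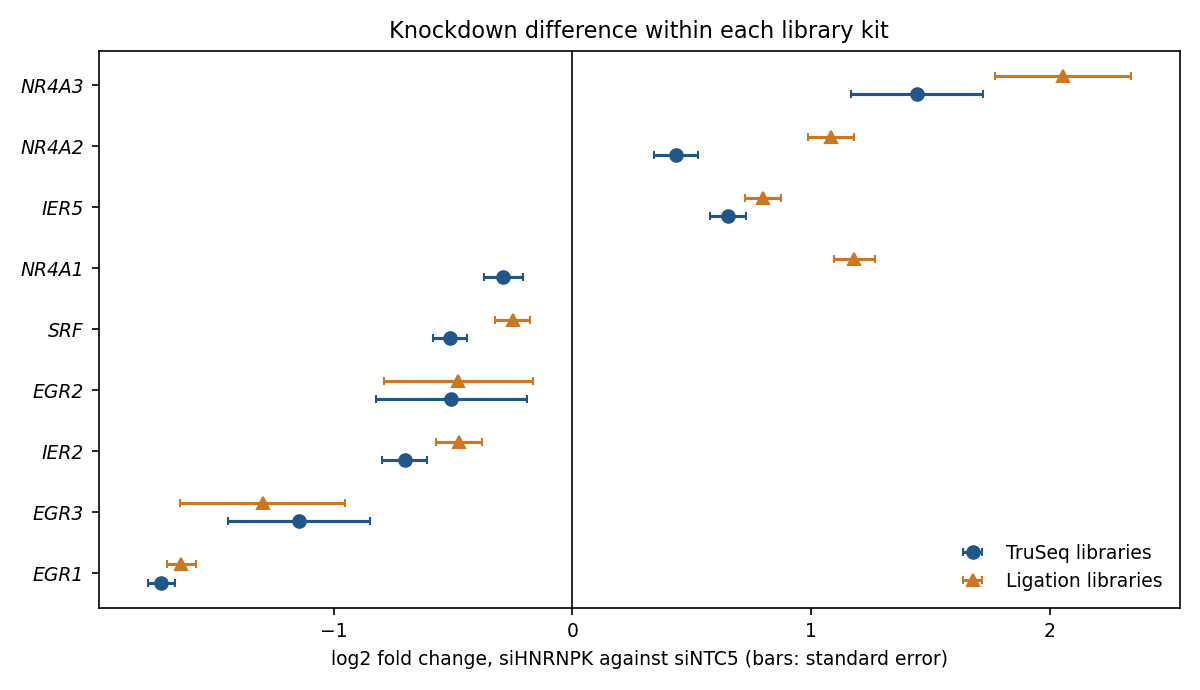
Log2 fold change of each tested member between siHNRNPK and siNTC5 within the TruSeq libraries (circles) and the Ligation libraries (triangles), 2 against 2 libraries each, with bars for the standard error. NR4A1 lies at -0.29 in TruSeq and at 1.18 in Ligation, and the other 8 members keep their sign.

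In siNTC5 alone, 4 of 9 members differed between the kits, against 21.5% of all tested genes (10.4% higher and 11.1% lower in Ligation), and all 4 were lower in Ligation. Besides NR4A1 and NR4A2 these were EGR1, lower by 0.53 ± 0.05 (adjusted p = 1.67e-05), and SRF, lower by 0.24 ± 0.07 (adjusted p = 0.0172). In siHNRNPK alone, 2 of 9 differed, against 15.2% of all tested genes (9.12% higher and 6.12% lower). EGR1 was lower in Ligation by 0.44 ± 0.06 (adjusted p = 2.49e-04) and IER5 was higher by 0.33 ± 0.07 (adjusted p = 0.00694). EGR1 thus had a lower level in the Ligation libraries of both groups, with nearly the same fall between the groups.

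The second set of nontargeting controls put several members at other levels than siNTC5. The fit took all 10 libraries and the 25527 shared names, with kit in the model, and 14642 genes were tested. Leaving out EGR1 and IER3, which was tested only because of its counts in Scramble, 6 of 8 members differed between Scramble and siNTC5, 5 higher and 1 lower, against 69.3% of all tested genes, of which 37.5% were higher and 31.8% lower. The purification kit, the count table and the library name differ between these control sets, which share 1 treatment label, and these differences cannot be told apart. Among the called genes 54.2% were higher, but 43.1% with upper-quartile scaling and 35.1% with library totals, and the median over all genes moved from 0.04 to -0.10 and -0.20.

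EGR1, described without a test, held 430 and 449 CPM in Scramble, above every siNTC5 library and 0.65 ± 0.05 higher on the log2 scale. EGR3 held 13.4 and 14.9 CPM in Scramble and was 1.39 ± 0.18 higher than in siNTC5 (adjusted p = 2.04e-06). EGR2 held 5.47 and 5.92 CPM and was 1.42 ± 0.20 higher (adjusted p = 3.86e-06). IER2 held 257 and 237 CPM and was 1.39 ± 0.09 higher (adjusted p = 6.02e-11). These 4 genes had the order Scramble, siNTC5, siHNRNPK in their means, although EGR2 overlapped between siNTC5 and siHNRNPK. IER5 held 67.1 and 66.7 CPM in Scramble and was 0.77 ± 0.07 higher than in siNTC5 (adjusted p = 1.13e-08). Of the 8 members other than EGR1 and IER3, 5 had both Scramble libraries above all siNTC5 libraries, EGR2, EGR3, NR4A3, IER2 and IER5, against 37.9% of all tested genes.

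**Figure D3:**
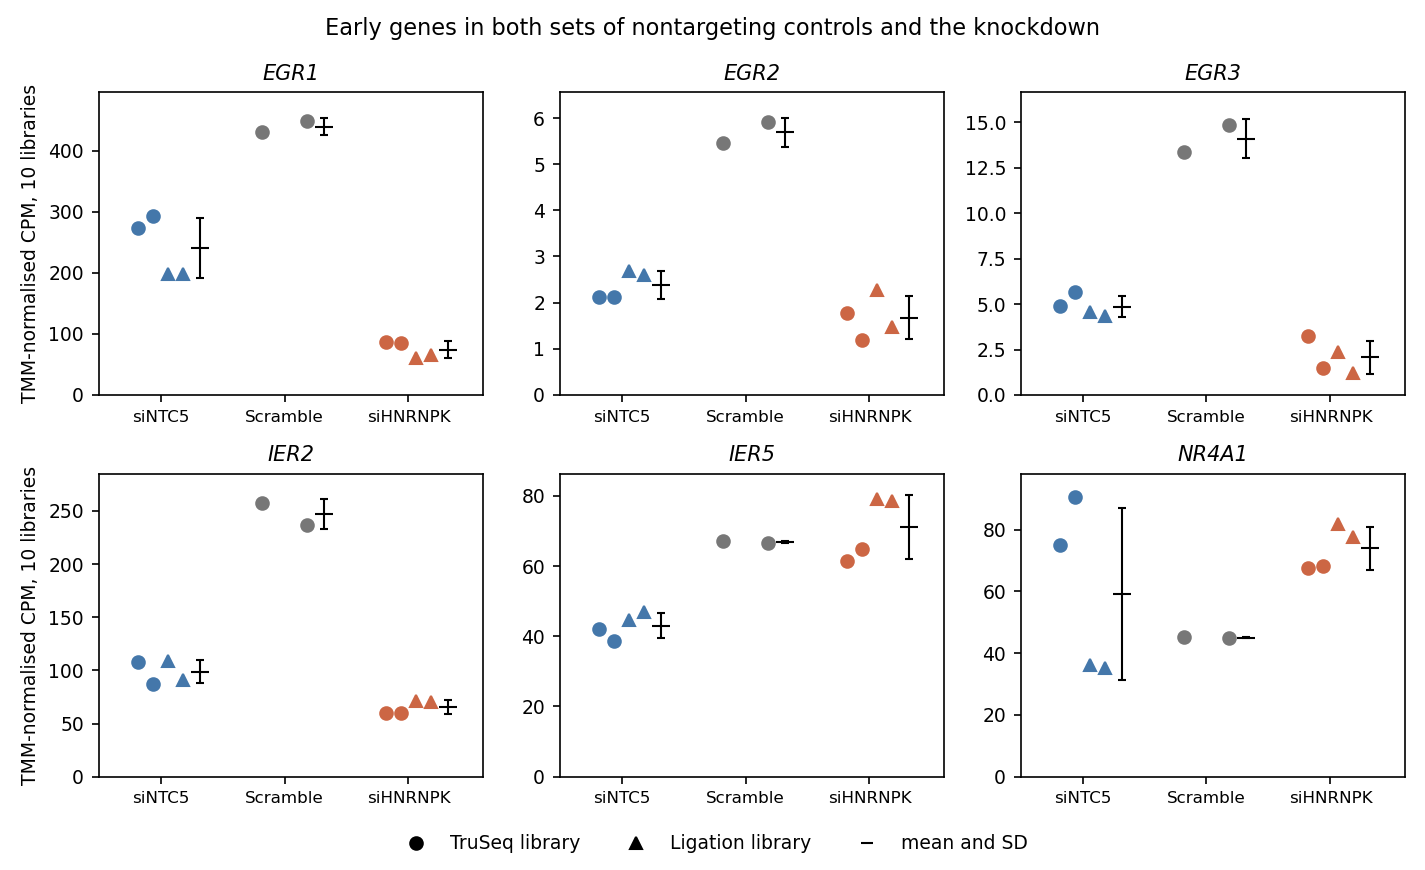
Level of 6 early genes in siNTC5, Scramble and siHNRNPK (CPM scaled over 10 libraries, axes from 0), with circles for TruSeq, triangles for Ligation, and the mean and SD beside each group (n = 4, 2 and 4). EGR1, EGR2, EGR3 and IER2 are highest in Scramble, IER5 in Scramble lies within the range of siHNRNPK, and NR4A1 in Scramble lies between the siNTC5 libraries of the kits.

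NR4A1 held 45.2 and 44.9 CPM in Scramble and was 0.58 ± 0.23 lower than in siNTC5 with kit in the model (adjusted p = 0.0277). This call was lost without siNTC5 replicate 2 (-0.28), without Scramble replicate 1 (-0.58) or replicate 2 (-0.57) and with no kit term (-0.40). The Scramble libraries are TruSeq libraries, yet their NR4A1 level lay below both TruSeq controls (75.1 and 90.5 CPM) and nearer the Ligation controls. The model holds 1 kit term for all groups, whereas the kits differed in NR4A1 mostly in siNTC5. The fold changes of NR4A1 in this fit thus depend on a term that does not describe both groups. NR4A3 held 2.08 and 1.95 CPM and was 0.64 ± 0.25 higher (adjusted p = 0.0265), a call lost without siNTC5 replicate 4 (0.54) or either Scramble library (0.59 and 0.69). NR4A2 at 25.6 and 29.4 CPM differed by 0.09 ± 0.13 and did not pass (adjusted p = 0.515). SRF at 73.9 and 70.7 CPM differed by -0.07 ± 0.07 and did not pass (adjusted p = 0.361), although it did with upper-quartile scaling (-0.21) or library totals (-0.31).

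Set against Scramble in place of siNTC5, 7 of 8 members other than EGR1 and IER3 differed in siHNRNPK, 3 higher and 4 lower, against 81.2% of all tested genes, of which 38.8% were higher and 42.4% lower. This comparison shares its siHNRNPK libraries with the one above, so its values are placed beside the first and do not add to them. EGR1 was -2.34 ± 0.05 on the log2 scale, described without a test. EGR3 was lower by 2.60 ± 0.22 (adjusted p = 1.58e-09), IER2 by 1.99 ± 0.09 (adjusted p = 3.19e-13) and EGR2 by 1.92 ± 0.22 (adjusted p = 1.53e-07). SRF was lower by 0.32 ± 0.07 (adjusted p = 6.36e-04), a call lost with upper-quartile scaling (-0.13) or library totals (-0.12). NR4A3 was higher by 1.10 ± 0.22 (adjusted p = 2.42e-04), NR4A1 by 0.97 ± 0.23 (adjusted p = 0.00113) and NR4A2 by 0.64 ± 0.13 (adjusted p = 1.67e-04). The value of NR4A1 again depends on the shared kit term. Within TruSeq it held 67.7 and 68.3 CPM in siHNRNPK and 45.2 and 44.9 CPM in Scramble. IER5, which rose against siNTC5, differed from Scramble by -0.05 ± 0.07 and did not pass (adjusted p = 0.497). In the fits over both kits the sign was thus the same against both control sets for the EGR genes, NR4A2, NR4A3, IER2 and SRF. Of these, EGR2 did not pass against siNTC5. NR4A1 in the TruSeq libraries of siHNRNPK lay below the TruSeq libraries of siNTC5 but above those of Scramble. The rise of IER5 was seen against siNTC5 alone.

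IER3, a regulator of cell survival on chromosome 6 (30743199 to 30744547), was almost absent from the table of 8 libraries and abundant in both Scramble tables. Its raw counts were 4, 0, 0 and 1 in siNTC5 and 1, 2, 0 and 0 in siHNRNPK, and 37017 and 32257 in Scramble. In CPM over 10 libraries the Scramble values were 741 and 699, with every other library at or below 0.236 CPM. Scramble and siNTC5 carry the same nontargeting label, so no fold is given. The submitters' processing notes list the build hg38 for the 8 libraries, and hg19 and hg38 for the Scramble libraries, with STAR 2.7.1a and featureCounts for both.

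Genes near IER3 showed the same gap. Of 9125 genes with at least 10 CPM in Scramble, 287 (3.15%) had a siNTC5 mean under 1% of the Scramble mean. Within 1000 kb of IER3, with IER3 itself counted, this held for 20 of 36 genes (55.6%). It held elsewhere on chromosome 6 for 28 of 412 (6.8%), and elsewhere in the genome, that chromosome included, for 267 of 9089 (2.94%). A gene was counted within 1000 kb if any part of it lay that near to IER3, and the distances below run from gene midpoint to gene midpoint. Genes under 1% also lay beyond the 1000 kb window, from TRIM27 at -1830 kb (0.0193%) to CUTA at 2673 kb (0%). Outside that span ZKSCAN3 at -2384 kb stood at 141% of its Scramble mean and BAK1 at 2832.5 kb at 110%, and inside it MICA stood at 102%. The window is thus a setting and does not mark the edges of the gap. IER3-AS1 overlaps IER3 in the annotation and is also in the table. How each table treats this stretch of chromosome 6 was not tested, and IER3 gives no knockdown comparison here.

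**Figure D4:**
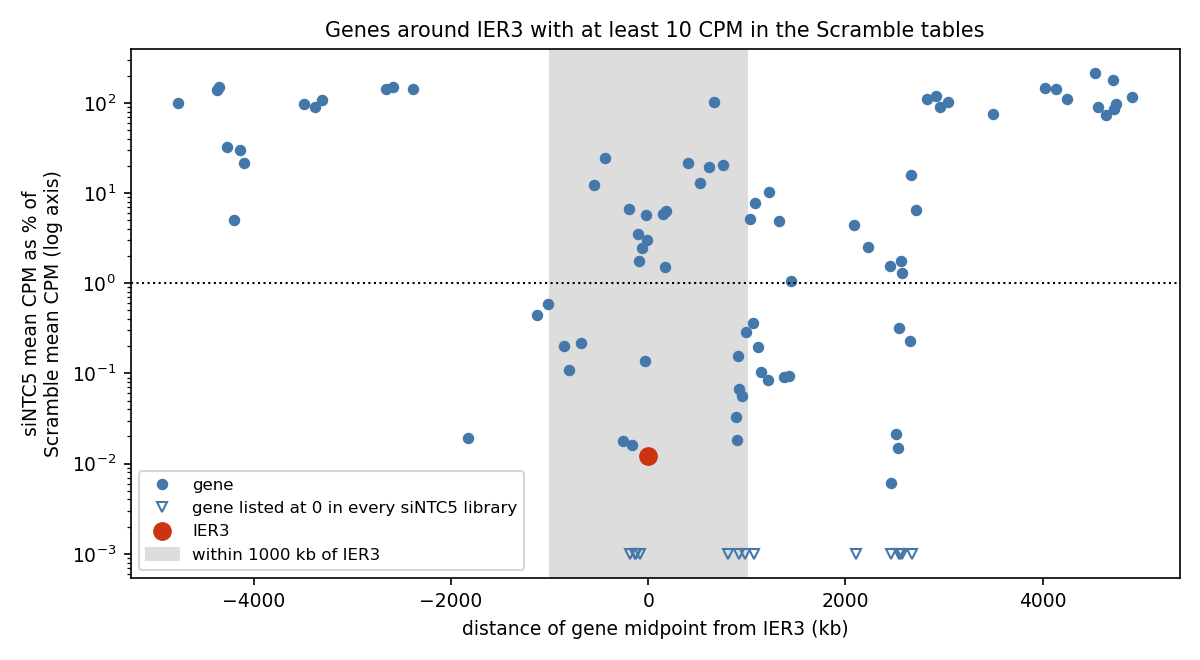
Mean siNTC5 CPM as a percent of mean Scramble CPM (log axis, dotted line at 1%) against the distance of each gene midpoint from IER3 in kb, for genes with at least 10 CPM in Scramble, with open triangles at the bottom for genes at 0 in all siNTC5 libraries. Within the shaded 1000 kb on each side 20 of 36 genes lie under 1%, IER3 (in red) included, and genes under 1% also lie outside the shading.

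Other early response genes moved in both directions as well. Of 35 in a list of such genes, 33 were tested and 27 passed in the knockdown comparison, 14 higher and 13 lower, with a median log2 fold change of 0.05. Over all tested genes 71.5% passed, 35.5% higher and 36.1% lower, with a median of -0.0042. SIK1 and EGR4 were not tested, and FOSB, FOSL2, BTG2, DUSP1, CSRNP1 and NFKBIZ did not pass. ATF3, a stress-induced repressor, rose from 23.9 ± 5.04 to 121 ± 15.6 CPM (log2 2.34 ± 0.07, adjusted p = 7.29e-15). CCN1, a matrix protein induced by YAP and SRF, rose from 31.0 ± 16.1 to 91.5 ± 17.98 CPM (1.64 ± 0.13, adjusted p = 2.02e-09). GADD45B, a stress sensor, rose from 13.7 ± 4.29 to 34.7 ± 7.73 CPM (1.36 ± 0.09, adjusted p = 1.25e-10).

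KLF2, a zinc finger factor of quiescent and flow-exposed cells, fell the most on this list, from 12.1 ± 2.83 to 1.88 ± 0.44 CPM (-2.66 ± 0.18, adjusted p = 6.91e-11). IER5L, a relative of IER5, fell from 15.1 ± 8.13 to 3.68 ± 2.17 CPM (-2.05 ± 0.21, adjusted p = 4.49e-08), the opposite direction to IER5. FOS, the AP-1 subunit long used as the model SRF target, fell by 1.51 ± 0.08 (adjusted p = 1.52e-11). Its libraries held 164, 179, 44.2 and 47.6 CPM in siNTC5 and 52.3, 51.3, 20.3 and 20.1 CPM in siHNRNPK, so that the Ligation controls lay below the TruSeq knockdown libraries and the groups overlapped. Of the 33 tested genes of this list, 3 passed the kit interaction test, FOSB, JUN and CCN1, against 0.129% of all tested genes. FOSB, another AP-1 subunit, changed sign between the kits as NR4A1 did, by a wider margin. It was -1.17 ± 0.12 in TruSeq (adjusted p = 1.43e-07) and 1.38 ± 0.15 in Ligation (adjusted p = 2.70e-07), a difference of 2.55 ± 0.19 (adjusted p = 6.94e-07). Its siNTC5 libraries held 53.1 and 70.4 CPM with TruSeq and 8.86 and 9.91 CPM with Ligation, and its siHNRNPK libraries 23.3 to 28.1 CPM, so that the kits again differed mostly in the controls. JUN was 0.49 ± 0.12 higher in TruSeq and 1.66 ± 0.12 higher in Ligation (adjusted p of the difference = 0.00390), and CCN1 1.23 ± 0.09 and 2.17 ± 0.11 (adjusted p of the difference = 0.00525).

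Of 13 cofactors and partners of the members, 12 were tested and 10 passed, 6 higher and 4 lower, with a median of 0.08, against 71.5% of all tested genes, 35.5% higher and 36.1% lower. NAB2, the repressor that binds EGR proteins, fell from 90.7 ± 11.6 to 37.6 ± 3.18 CPM (-1.26 ± 0.08, adjusted p = 1.39e-10). RXRA, which pairs with NR4A1 and NR4A2, fell from 62.8 ± 9.98 to 24.9 ± 4.39 CPM (-1.33 ± 0.09, adjusted p = 1.35e-10). RXRB went from 0.854 ± 0.282 to 1.70 ± 0.217 CPM (1.01 ± 0.27, adjusted p = 0.00244), but it lies 2453 kb from IER3 and its siNTC5 mean was 1.56% of its Scramble mean. In either kit alone, or with no kit term, 6 of these genes passed. The share of all tested genes called under those settings is not given here, so this count is not read as particular to these genes.

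Of 17 cytoskeletal targets of SRF, 15 were tested and 14 passed, 3 higher and 11 lower, with a median of -0.36. This list, like the others, was chosen with earlier results of these data known. Its counts are thus a description and not a test of SRF targets. Over all tested genes 71.5% passed, 35.5% higher and 36.1% lower, with a median of -0.0042. ACTB, FHL2 and TAGLN were the 3 that rose, TPM1 did not pass, and CNN1 and ZYX were not tested. ZYX had a gap between the tables like that of IER3. Scaled over 10 libraries, it held 303 and 302 CPM in Scramble and stood at or below 0.1182 CPM in every other library. MYL9, a myosin light chain of smooth muscle and stress fibres, fell from 31.2 ± 1.83 to 5.26 ± 1.07 CPM (-2.57 ± 0.12, adjusted p = 4.13e-13). FHL1, a LIM domain protein of muscle, fell by 1.12 ± 0.10 (adjusted p = 6.28e-09) and TGFB1I1, a focal adhesion adaptor, by 1.05 ± 0.16 (adjusted p = 8.90e-06). ACTA2, the smooth muscle actin, fell by 1.39 ± 0.29 (adjusted p = 2.18e-04), with -0.55 ± 0.28 in TruSeq and -2.33 ± 0.33 in Ligation. ACTA2, TAGLN and MYL9 also mark fibroblasts, and the summed fibroblast markers given above, nearly all COL1A1, were higher in siHNRNPK. In these libraries of 1 cell line the highest values were 0.223 CPM for COL1A2, 0.506 for COL3A1, 0.577 for DCN and 0.960 for PDGFRB.

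**Figure D5:**
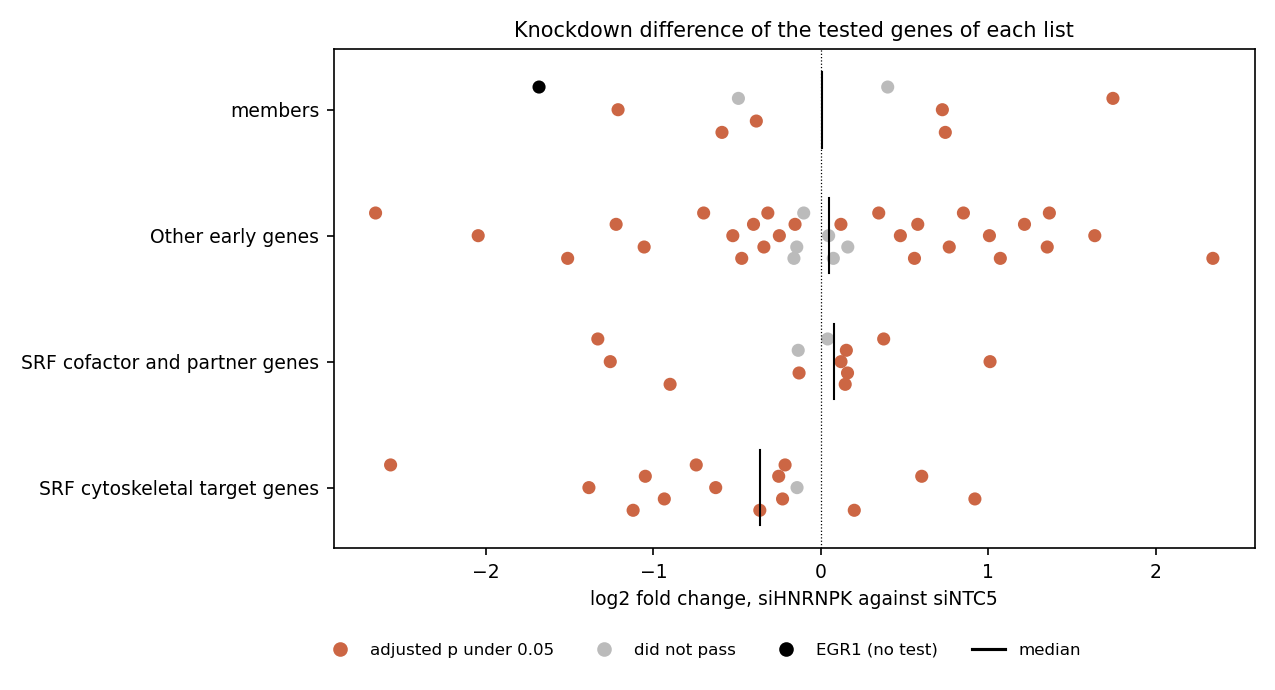
Log2 fold change between siHNRNPK and siNTC5 of every tested gene of the early genes described here (members) and of 3 related lists, 1 point per gene, with the median of each list as a bar (that of the members without EGR1). Values lie on both sides of 0 in every list, and the cytoskeletal targets have 11 genes that fell and 3 that rose.

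The 5 genes whose pattern over the 8 libraries was closest to that of EGR1 were NIPAL1, DCBLD2, SHPK, JAGN1 and CST3. Likeness was the root mean square difference of log2 CPM after each gene's own mean was removed, over 9992 candidates with an average log2 CPM of at least 3. EGR1 was chosen for its fall in these same 8 libraries, so a gene close to it fell too by construction. The order below thus largely restates the knockdown differences given above. It was 0.103 for NIPAL1, 0.129 for DCBLD2, 0.146 for SHPK, 0.148 for JAGN1 and 0.150 for CST3. DCBLD2, a membrane receptor, went from 1528 to 454 CPM and CST3, the secreted protease inhibitor cystatin C, from 53.1 to 18.7 CPM. Among the members EGR3 was closest to EGR1 at 0.421, followed by IER2 at 0.641, SRF at 0.680 and EGR2 at 0.738. NR4A1 stood at 1.12, NR4A2 at 1.24, IER5 at 1.26 and NR4A3 at 1.72. No early response gene of the lists was among the 5 closest.

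In chromatin, the members lay outside the lamina-associated and H3K9-methylated domains. No member had at least 50% of its body in a domain of lamin B1, H3K9me2 or H3K9me3 in any of the control or knockdown lists (0 of 10 each). Over 26987 positioned genes this held for 13.0% with control lamin B1, 9.07% with H3K9me2 and 9.43% with control H3K9me3, and for 9.23% with lamin B1 and 13.3% with H3K9me3 after knockdown. H3K9me2 has a control list only. No test was made of these counts of 10 genes, and with shares this low 0 of 10 is not read as a trait of the members. The positioned genes were not limited to expressed genes, whereas 9 of the 10 members were expressed enough to be tested. EGR1 lay 860 kb from the nearest control lamin B1 domain and 980 kb from the nearest after knockdown. NR4A2 lay 49.4 kb from a control H3K9me3 domain and 39.4 kb from its knockdown counterpart, and IER5 57.1 kb and 47.1 kb.

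H3K27me3, the mark of Polycomb repression, covered 2 of the 10 members in control cells, EGR2 and EGR3, against 22.7% of all positioned genes. After knockdown it covered none, against 20.9%. EGR2 (chromosome 10, 62811996 to 62819167) lay whole in a control domain of 435 kb, 62500001 to 62935000, with a deposited score of 0.248, under the list's median of 0.884. In the knockdown list the nearest domain was 3197 kb away. EGR3, on chromosome 8, lay whole in a control domain of 280 kb with a score of 1.01. Its knockdown counterpart of 265 kb began inside the control domain and left EGR3 outside by 6.52 kb, on a list whose edges fall on steps of 5 kb. Among control domains scoring above the median, only EGR3 of the 10 members was covered. There is 1 list for each antibody and siRNA, so these differences have no replicate check, and the RNA of EGR2 and EGR3 was low in both groups and not higher after knockdown.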

How the data were processed

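RNA was measured in 10 libraries of HCT116 cells: siNTC5 (n = 4), siHNRNPK (n = 4) and Scramble (n = 2). The authors deposited raw counts per gene symbol, whole numbers without normalization, as 1 table of 8 libraries and 1 table for each Scramble library. STAR 2.7.1a and featureCounts are named for all of them, with Subread 2.0.6 for the 8, per the submitters' processing notes; the annotation and the strand counted are not given in the sources used here. The authors also deposited 7 lists of ChIP domains on hg38, each domain with a score whose scale is not given. Bowtie2 2.5.1, fastp 0.23.2 and deepTools 3.1.3 are named for ChIP in the same notes, with no role.

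Counts were tested in edgeR 4.0.16 (limma 3.58.1, R 4.3.3) with filterByExpr, TMM scaling and the quasi-likelihood test, with kit in the model, Benjamini-Hochberg adjustment over all tested genes and a threshold of 0.05. Total counts per library bound the precision: 1 count is 0.0169 to 0.0826 CPM before scaling. Scripts were tested on simulated data. DESeq2 1.42.0, other scalings and filters, single kits, a replicate block and leaving out each library were alternatives. Libraries with the same replicate number deviated together (r over genes 0.1, 0.425, 0.337 and 0.265 for replicates 1 to 4). After a fit of kit and treatment r was -0.191, -0.156, -0.281 and -0.252. Such a fit in itself makes these residuals negatively correlated, so the values are not read against 0 and do not decide on pairing. The numbers mark the kit they share in the labels, and no pairing beyond kit was shown. The block is given as an alternative.

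A gene belonged to a domain with at least 50% of its body covered, by RefSeq positions on GRCh38. The members and the gene lists were chosen with earlier results of these data known. The genes named are HNRNPK, the members, the 5 closest profiles to EGR1 and, of each list, up to 6 genes past the threshold with a log2 change of at least 1. Genes named for missing the test, the 3 cytoskeletal targets that rose, and FOSB and JUN as interaction calls, were added after their values were seen.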

Additional observations from a re-analysis of the deposited data

Results flagged for a closer look

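The knockdown difference of NR4A1 differed between the library kits. It was 1.47 ± 0.12 higher on the log2 scale in the Ligation than in the TruSeq libraries (interaction test in edgeR, adjusted p = 2.12e-06), with 2 libraries in each arm. Both Ligation controls, at 36.0 and 34.8 CPM, lay under the TruSeq controls at 75.3 and 90.4 CPM, while the 4 siHNRNPK libraries spanned 67.8 to 82.3 CPM. Kit and replicate pair coincide, so the kit and any other difference between these pairs of libraries cannot be told apart.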

How the results depend on the processing

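In the knockdown comparison, EGR3, NR4A2, NR4A3, IER2 and SRF kept their sign and their call under every scaling, filter, tool, single-kit and left-out-library alternative run; IER5 did so except with Scramble added. A minimum log2 change of 1 left 2195 of 9968 genes, 2 of 6 members, 12 of 27 early genes, 3 of 10 cofactors and 4 of 14 cytoskeletal targets. Adding Scramble to the controls left 14 early genes and 3 cofactors, and 6 cofactors passed with no kit term or in either kit alone. The share of all tested genes called under these settings is not given here, so these losses are not read as particular to the lists. NR4A1 changed sign in TruSeq libraries alone (-0.28).

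The count of interaction calls was unstable: 18 over all genes, but 239 with no filter, 65 with DESeq2, 44 with robust dispersion and 66 with the replicate block, and 6 without siHNRNPK replicate 3 to 598 without siNTC5 replicate 2. Members went from 1 to 2 under those settings, NR4A2 being the second, and ranged from 1 to 3 without single libraries. The replicate block changed no other call of a member. Kit differences within siNTC5 (2994 genes, 4 members) ranged from 1062 without siNTC5 replicate 3 to 4460 without siNTC5 replicate 1, and from 3 to 5 members; without siNTC5 replicate 2 or 4 they were 1917 and 1388. Within siHNRNPK (2123 genes, 2 members) they ranged from 769 without siHNRNPK replicate 3 to 3162 without siNTC5 replicate 1 and from 1 to 4 members, with 4 members when siHNRNPK was fitted alone. Leaving out a library there leaves an arm of 1, assumed to vary like the others. No block could be fitted for the kit differences, since kit is nested in replicate.

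Against siNTC5, NR4A2 in Scramble changed sign with upper-quartile scaling (-0.041), library totals (-0.14), TruSeq alone (-0.055), only those groups fitted (-0.10) and without Scramble replicate 2 (-0.00040), and reached 0.24 without siNTC5 replicate 2. NR4A3 there also lost its call with those 4 settings, DESeq2 (0.63) and no kit term (0.48); NR4A1 with DESeq2 (-0.56) and robust dispersion. SRF gained one with only those groups fitted (-0.18). IER5 in siHNRNPK against Scramble changed sign with upper-quartile scaling (0.13), library totals (0.15), a mean of at least 50 counts (0.043) and no kit term (0.084). NR4A1 there lost its call with robust dispersion (0.97) and no kit term (0.71). The cause was not tested for any of these. Of the members in control H3K27me3 domains, 1 of 2 was left among domains scoring above the median. In the 8-library knockdown fit EGR2, EGR3 and NR4A3, all under 7 CPM, have the largest standard errors of the members.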
